A study of Homo sapiens with 30 samples.

Results

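The transcripts of SLC7A11 and of 9 other genes of ferroptosis and iron handling were followed in HepG2 cells treated with sorafenib, a multikinase inhibitor. The members were 10 of the 60107 genes in the count table: SLC7A11, GPX4, ACSL4, AIFM2, LPCAT3, NCOA4, TFRC, FTH1, FTL and SLC40A1. They were taken by symbol, and SLC7A11 was chosen by its measured sorafenib effects, which had opposite signs at the 6 h and 24 h time points. Its sorafenib values are therefore a description with no test, while the other 9 were tested for sorafenib and all 10 for the transfected oligonucleotides.

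HepG2 is an established human liver cancer line, labelled as hepatocellular carcinoma and called hepatoblastoma in the study's text. All cells were transfected and, a day later, received sorafenib at 10 µM or DMSO, its solvent. In the 6 h experiment, cells carried an inhibitor control (IC) or an inhibitor of miR-200c-3p (I-miR-200c-3p). In the 24 h experiment, they carried a mimic control (MC), a mimic of miR-222-5p (M-miR-222-5p) or a mimic of miR-512-3p (M-miR-512-3p). Each of the 10 groups (5 transfections, DMSO or sorafenib) had 3 biological replicates from this 1 line, and p-values measure the spread between them. Inhibitors were harvested at 6 h and mimics at 24 h, so time, experiment and kind of oligonucleotide cannot be told apart. No untransfected cells were among the samples used here.

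Ferroptosis is a form of cell death in which iron drives the peroxidation of membrane phospholipids. SLC7A11 imports cystine for glutathione synthesis, GPX4 uses glutathione to reduce lipid peroxides, and AIFM2 (FSP1) regenerates ubiquinol, which traps lipid radicals. ACSL4 and LPCAT3 place polyunsaturated fatty acids in phospholipids. Iron enters bound to transferrin through TFRC, is stored in ferritin (FTH1 and FTL), is released when NCOA4 delivers ferritin to lysosomes, and leaves through SLC40A1 (ferroportin). Hepatocytes are a main site of iron storage and secrete hepcidin, which removes ferroportin from the cell surface.

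The 30 libraries were 3′ tag libraries, in which a transcript gives a fragment near its end, and levels are given as CPM, counts scaled to a total of 1000000 per library after TMM (trimmed mean of M-values) normalisation, and not divided by gene length. They held 3938764 to 9657063 counts, so that a count of 0 allows up to 0.311 to 0.762 CPM. All 8 hepatocyte-lineage markers checked had counts in every library (ALB 2340 to 5100 CPM, AFP 705 to 3190 CPM), and of 10 fibroblast, endothelial and leukocyte markers 4 (COL1A2, DCN, VWF and CD3E) were at 0 in all 30. The others reached at most 11.6 CPM (COL1A1), and 1 of them, CD68, had counts in every library (0.446 to 11.1 CPM). M-miR-512-3p_sorafenib replicate 3 stood apart from its group: counts were seen for 16582 genes, against 13656 and 13866, and 17.5% of its counts were mitochondrial, against 24.2% in both others. It was also the deepest of its group, at 8574340 counts against 5720660 and 6199321. Other groups spread as well: genes seen ran from 13394 to 16132 in MC_sorafenib and from 13252 to 16232 in M-miR-222-5p_sorafenib. I-miR-200c-3p_DMSO replicate 2 had 26.8% mitochondrial counts, against 19.9% and 18.2%. Calls of members in the main fits that rest on M-miR-512-3p_sorafenib replicate 3 are given with and without it, and its part in them was otherwise not tested. In bulk RNA, fewer expressing cells and less RNA per cell cannot be told apart.

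SLC7A11 (chr4:138164097-138242349, GRCh38, minus strand) had low levels in both DMSO groups of the 6 h experiment. In IC with DMSO its 3 libraries were at 28.9, 34.3 and 22.5 CPM, and with sorafenib they were at 26.5, 33.9 and 11.9 CPM. With the miR-200c-3p inhibitor the DMSO libraries were at 26.2, 20.2 and 34.1 CPM, and the sorafenib libraries at 8.26, 14.2 and 11.3 CPM. The IC groups overlapped, while every I-miR-200c-3p library with sorafenib lay below every one with DMSO. The log2 difference, sorafenib minus DMSO, was -0.26 (SE 0.314) in IC and -1.25 (SE 0.317) in I-miR-200c-3p, with a mean of -0.76 (SE 0.223), or 59.1% of the DMSO level.

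At 24 h the order of treatments was the opposite. The MC libraries were at 9.24, 20.8 and 8.66 CPM in DMSO and at 94.9, 58.4 and 131.3 CPM in sorafenib. Those of M-miR-222-5p were at 4.03, 19.9 and 10.9 CPM in DMSO and at 75.7, 68.7 and 97.4 CPM in sorafenib. Those of M-miR-512-3p were at 16.7, 15.2 and 17.4 CPM in DMSO and at 99.7, 110.3 and 188.2 CPM in sorafenib, the highest of these being the library that stood apart. In each transfection all sorafenib libraries lay above all DMSO libraries. The fitted log2 difference was 2.91 (SE 0.419) in MC, 2.84 (SE 0.421) in M-miR-222-5p and 2.98 (SE 0.412) in M-miR-512-3p. Their mean was 2.91 (SE 0.241), a level 7.51-fold that in DMSO. Without the library that stood apart, the mean was 2.79 and the difference in M-miR-512-3p was 2.635. The effect at 24 h exceeded that at 6 h by 3.68 (SE 0.362) on the log2 scale.

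**Figure D1:**
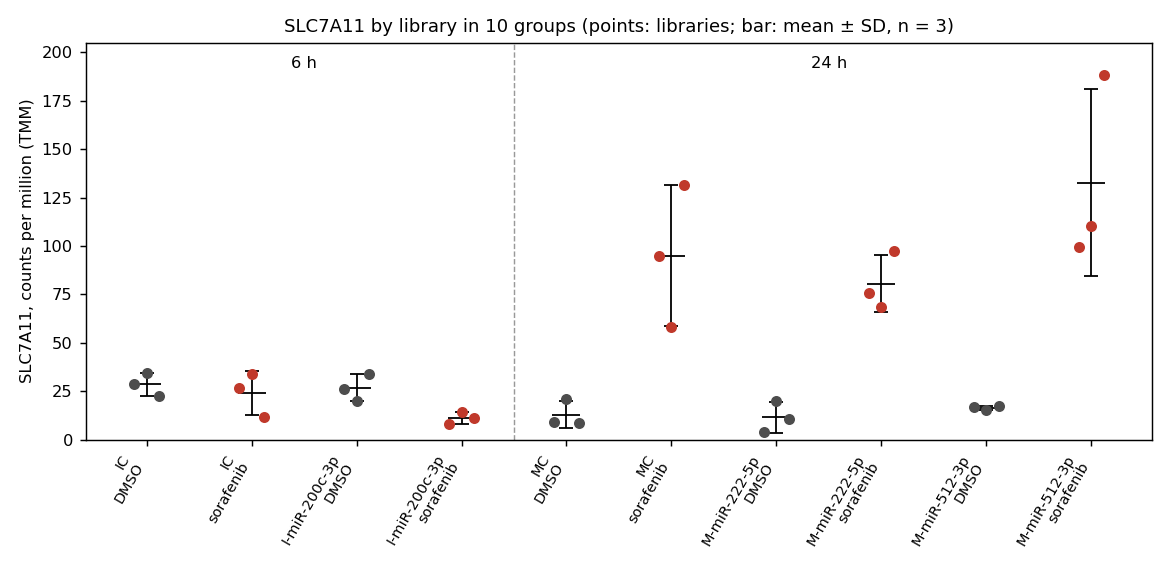
SLC7A11 in each of the 30 libraries (points, CPM) by group, with the mean and SD of 3 libraries (bars). DMSO groups are grey and sorafenib groups red, and the dashed line parts the 6 h groups from the 24 h groups. The 3 sorafenib groups at 24 h, with means from 80.6 to 132.7 CPM, lie above the other 7, whose means run from 11.3 to 28.6 CPM.

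Ordered by mean level, I-miR-200c-3p_sorafenib was lowest (11.3 ± 2.96 CPM, SD, n = 3), followed by the 24 h DMSO groups M-miR-222-5p (11.6 ± 7.97 CPM), MC (12.9 ± 6.86 CPM) and M-miR-512-3p (16.5 ± 1.13 CPM). Above them came the 6 h groups IC_sorafenib (24.1 ± 11.2 CPM), I-miR-200c-3p_DMSO (26.8 ± 6.97 CPM) and IC_DMSO (28.6 ± 5.92 CPM), and then the 24 h sorafenib groups. The 1 step between neighbours in this order at which libraries did not overlap was from IC_DMSO to M-miR-222-5p_sorafenib (80.6 ± 14.9 CPM). MC_sorafenib (94.9 ± 36.4 CPM) and M-miR-512-3p_sorafenib (132.7 ± 48.3 CPM) followed, and neither was separate from the group before it.

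The rule had not used the contrasts of an oligonucleotide with its control within a treatment, so SLC7A11 was tested there, in the same libraries. In DMSO its level with the miR-200c-3p inhibitor was 94.4% of that in IC (log2 difference -0.08, SE 0.311, edgeR adjusted p = 0.997). In sorafenib it was 47.4% of the IC level (log2 difference -1.08, SE 0.319), and 1 IC library, at 11.9 CPM, lay below the highest inhibitor library. The difference in sorafenib did not pass over all genes (edgeR, Benjamini-Hochberg adjusted p = 1). The difference between the 2 sorafenib effects at 6 h was -0.99 (SE 0.445). It is made of the effects that chose the gene and is given as a description. For the mimics at 24 h the log2 differences from MC were -0.19 and -0.27 for M-miR-222-5p in DMSO and in sorafenib, and 0.38 and 0.44 for M-miR-512-3p, with edgeR adjusted p from 0.723 to 0.993. Without M-miR-512-3p_sorafenib replicate 3, the difference for M-miR-512-3p in sorafenib was 0.12 (edgeR adjusted p = 0.938).

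Among the 9 tested members, sorafenib moved none past the threshold at 6 h and 5 at 24 h. A gene was called where edgeR's quasi-likelihood test gave a Benjamini-Hochberg adjusted p under 0.05 over all genes tested. At 6 h, 0 of 9 were called, where 2.89% of the 12738 genes tested were. There, 1 member was at an unadjusted p under 0.05, where 1962 of the 12738 genes were, and DESeq2 called 0. At 24 h, 5 of 9 were called, where 25.8% of 13244 genes were: GPX4, AIFM2 and SLC40A1 were higher, and ACSL4 and NCOA4 were lower. The median log2 difference of the 9 was 0.13 at 6 h and 0.14 at 24 h, beside 0.01 and -0.04 over all genes tested. Scaling to total counts in place of TMM moved the median of all genes at 24 h by -0.13 and the share of higher genes among those called from 52.1% to 32.8%. Under that scaling the calls of GPX4 and AIFM2 were lost and LPCAT3 was called lower, with no change of sign for these 3.

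**Figure D2:**
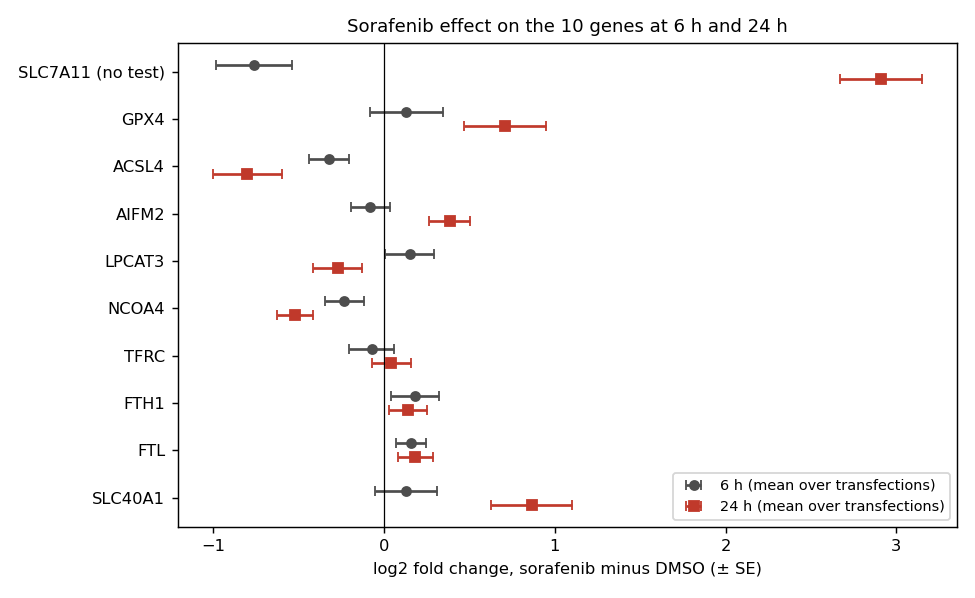
Log2 fold change of sorafenib over DMSO with its SE for the 10 genes, as the mean over 2 transfections at 6 h (grey circles) and over 3 at 24 h (red squares). SLC7A11 lies at -0.76 and 2.91, while the other 9 lie between -0.80 and 0.87 at both times.

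GPX4 (chr19:1103994-1106779) varied widely between libraries of a group. In MC and M-miR-222-5p it was highest in replicate 1 and lowest in replicate 2 under both treatments. Its DMSO libraries at 24 h were at 66.8, 21.3 and 48.9 CPM in MC, 63.1, 23.1 and 33.3 CPM in M-miR-222-5p, and 41.7, 46.1 and 45.0 CPM in M-miR-512-3p. With sorafenib they were at 85.8, 25.5 and 51.4 CPM, 66.7, 34.5 and 54.3 CPM, and 127.3, 70.8 and 187.9 CPM, in the same order. Only in M-miR-512-3p did the treated libraries all lie above the DMSO libraries. The mean log2 difference was 0.71 (SE 0.24, edgeR adjusted p = 0.0303) and that within M-miR-512-3p was 1.51 (SE 0.419, edgeR adjusted p = 0.0219). Without M-miR-512-3p_sorafenib replicate 3 they were 0.58 (edgeR adjusted p = 0.0773) and 1.13 (edgeR adjusted p = 0.105). The mean call was also lost without MC_sorafenib replicate 1, M-miR-222-5p_sorafenib replicate 1 or M-miR-512-3p_DMSO replicate 1 (edgeR adjusted p = 0.0782, 0.0577 and 0.0541), and with DESeq2 (adjusted p = 0.0753). With replicate number as a block in the fit the mean call was kept (0.68, edgeR adjusted p = 0.00399). The call within M-miR-512-3p was also lost without any of M-miR-512-3p_DMSO replicates 1, 2 and 3 (edgeR adjusted p = 0.0783, 0.0606 and 0.0636).

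AIFM2 (chr10:70112271-70132825, minus strand) differed by a small and similar amount in the 3 transfections. In DMSO it was at 87.2, 89.9 and 109.4 CPM in MC, 86.0, 117.7 and 107.3 CPM in M-miR-222-5p, and 134, 129.1 and 118.6 CPM in M-miR-512-3p. In sorafenib it was at 133.1, 109.7 and 153.4 CPM, 103.5, 119.6 and 171.9 CPM, and 139.5, 152.5 and 203.2 CPM. The MC and M-miR-512-3p groups did not overlap between treatments, while those of M-miR-222-5p did. The mean log2 difference was 0.39 (SE 0.121, edgeR adjusted p = 0.0206), made of 0.47, 0.34 and 0.34, none of which was called alone. Without M-miR-512-3p_sorafenib replicate 3 the mean was 0.32 (edgeR adjusted p = 0.0523).

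ACSL4 (chrX:109641335-109733257, minus strand), which activates arachidonic and adrenic acid for phospholipid synthesis, was lower with sorafenib at 24 h. Its DMSO libraries were at 203.8, 190.4 and 126 CPM in MC, 286.5, 138.1 and 156.3 CPM in M-miR-222-5p, and 225.3, 327.2 and 443.6 CPM in M-miR-512-3p. Its sorafenib libraries were at 110.2, 168.7 and 137 CPM, 113.9, 157.2 and 82.4 CPM, and 221.3, 80.3 and 92.5 CPM. Treatments overlapped in MC and M-miR-222-5p and were separate in M-miR-512-3p, by 225.3 against 221.3 CPM at the closest. The mean fell by 0.80 on the log2 scale (SE 0.2, edgeR adjusted p = 0.00447), and M-miR-512-3p alone fell by 1.36 (SE 0.349, edgeR adjusted p = 0.0138). Without the library that stood apart these were -0.74 (edgeR adjusted p = 0.00814) and -1.17 (edgeR adjusted p = 0.0543). The call within M-miR-512-3p was also lost without M-miR-512-3p_DMSO replicate 3 or M-miR-512-3p_sorafenib replicate 2 (edgeR adjusted p = 0.0984 and 0.0646). At 6 h the log2 difference was -0.32 (SE 0.118, edgeR adjusted p = 0.172), with -0.53 in I-miR-200c-3p, where treatments did not overlap, and -0.12 in IC.

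LPCAT3 (chr12:6976185-7018476, minus strand), which acts after ACSL4 by adding the activated acids to lysophospholipids, was not called for sorafenib. The mean log2 difference was 0.15 (SE 0.145) at 6 h and -0.27 (SE 0.145, edgeR adjusted p = 0.177) at 24 h, and -0.41 with total counts (edgeR adjusted p = 0.0343). Its group means ran from 30.5 ± 10.2 CPM in M-miR-512-3p_sorafenib to 69.1 ± 5.17 CPM in M-miR-222-5p_DMSO (SD, n = 3).

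**Figure D3:**
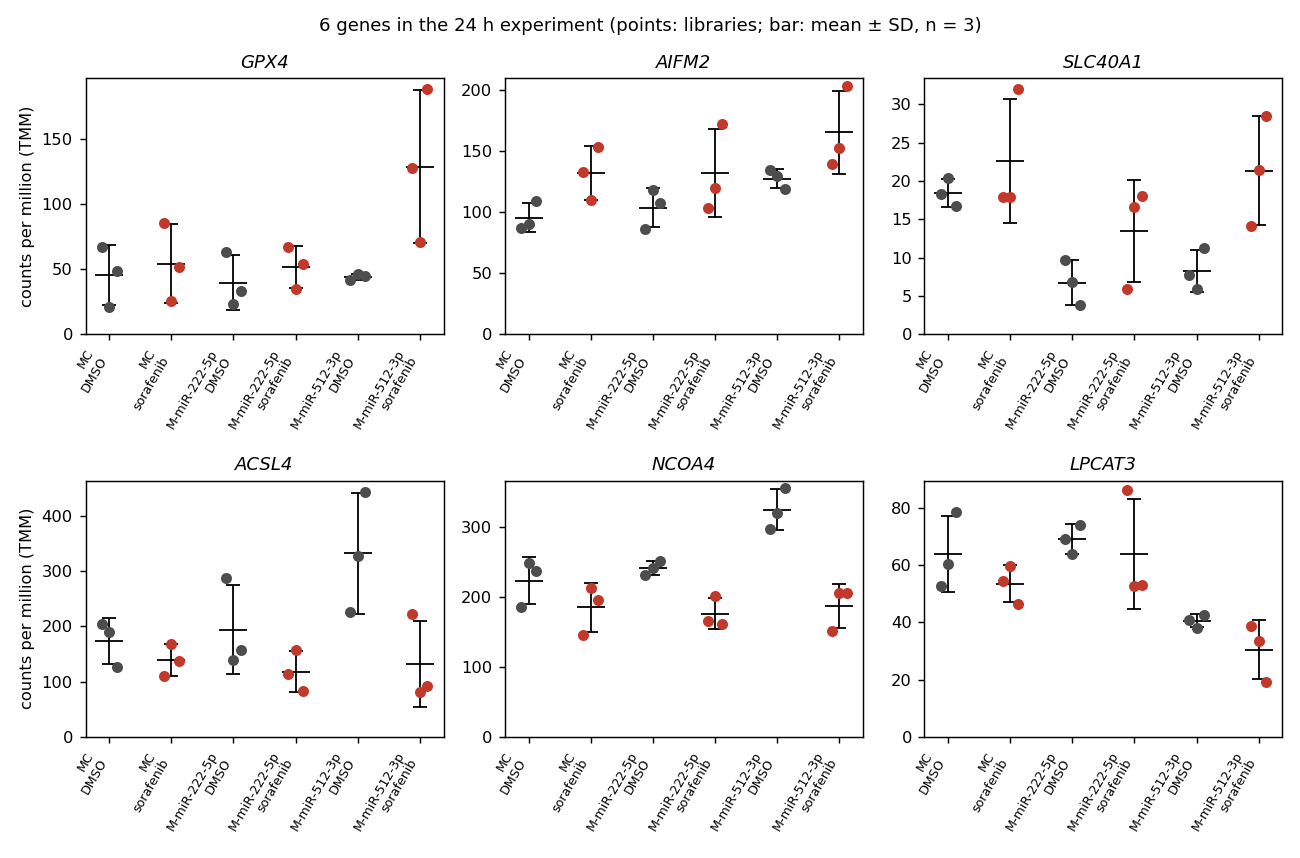
Levels of 6 members in the 18 libraries of the 24 h experiment (points, CPM; DMSO grey, sorafenib red) with the mean and SD of 3 libraries. GPX4, AIFM2 and SLC40A1 were called higher and ACSL4 and NCOA4 lower over the 3 transfections, while LPCAT3 was not called.

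Of the 5 iron-handling members, NCOA4 was lower with sorafenib at 24 h, SLC40A1 was higher, and TFRC, FTH1 and FTL were not called. NCOA4 (chr10:46005088-46030623, minus strand), the receptor that takes ferritin to the lysosome, was at 185.7, 248.5 and 237.3 CPM in MC_DMSO, 232.1, 242.3 and 252 CPM in M-miR-222-5p_DMSO, and 298, 321.1 and 356.1 CPM in M-miR-512-3p_DMSO. In the sorafenib groups of the same transfections it was at 146.1, 213.7 and 195.7 CPM, 165.4, 201.5 and 161.6 CPM, and 151.1, 205.8 and 205.8 CPM. Only the MC groups overlapped. The mean fell by 0.52 on the log2 scale (SE 0.107, edgeR adjusted p = 0.000825), from -0.27 in MC and -0.46 in M-miR-222-5p to -0.83 in M-miR-512-3p (SE 0.186, edgeR adjusted p = 0.00521), the 1 of these that was called. NCOA4 kept both calls without M-miR-512-3p_sorafenib replicate 3 (-0.55 and -0.90). At 6 h its log2 difference was -0.23 (SE 0.114, edgeR adjusted p = 0.336).

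SLC40A1 (chr2:189560590-189580786, minus strand), the known iron exporter of mammalian cells, gave the fewest counts of the members, 2842 over all libraries. Its DMSO libraries at 24 h were at 18.4, 20.3 and 16.7 CPM in MC, 9.69, 6.79 and 3.81 CPM in M-miR-222-5p, and 7.75, 5.88 and 11.3 CPM in M-miR-512-3p. With sorafenib they were at 17.98, 17.95 and 31.97 CPM, 5.92, 16.6 and 18.03 CPM, and 14.2, 21.5 and 28.4 CPM. Treatments were separate in M-miR-512-3p and overlapped in the other transfections. The mean log2 difference was 0.87 (SE 0.238, edgeR adjusted p = 0.00916), and 0.77 (edgeR adjusted p = 0.0252) without the library that stood apart. Within M-miR-512-3p it was 1.33 (SE 0.414, edgeR adjusted p = 0.0414), and this call was lost without that library (1.06, edgeR adjusted p = 0.151), with total counts (1.15, edgeR adjusted p = 0.08), or without either of M-miR-512-3p_DMSO replicates 1 and 2 or M-miR-512-3p_sorafenib replicate 2 (edgeR adjusted p = 0.134, 0.158 and 0.0674).

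TFRC (chr3:196049284-196082090, minus strand) had group means between 153.3 ± 42.9 CPM in M-miR-512-3p_sorafenib and 196.7 ± 60.7 CPM in I-miR-200c-3p_DMSO (SD, n = 3), and each group in this order overlapped the next. Its log2 difference was -0.07 (SE 0.133) at 6 h and 0.04 (SE 0.115) at 24 h. The ferritin chains gave the most counts of the members. FTH1 (chr11:61964285-61967634, minus strand) had group means from 807.3 ± 178 to 1116 ± 103 CPM and FTL (chr19:48965309-48966879) from 3618 ± 737 to 5001 ± 554 CPM, with overlap at every step in both orders. The log2 differences of FTH1 were 0.18 (SE 0.141) and 0.14 (SE 0.11), and those of FTL were 0.16 (SE 0.086) and 0.19 (SE 0.101), at 6 h and 24 h, with edgeR adjusted p from 0.184 to 0.587. Ferritin has many processed copies in the genome, and reads may be shared with them. In a library, 25 FTH1 pseudogene rows held at most 0.369% of the counts of FTH1 and these rows together. For the 16 FTL pseudogene rows this share was at most 0.0682%. How reads that match several places were counted is not given, so these shares do not bound such sharing.

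Iron is known to act on several of these messages through the iron-responsive element, a hairpin bound by IRP1 and IRP2 when iron is low. Binding near the start of a message blocks its translation, which counts of RNA do not show, and binding in the 3′ UTR of TFRC protects the message from decay. The hairpins are shown because they part the iron members into these 2 modes. The reference transcripts (GENCODE release 44, GRCh38) were searched on the sense strand for a C, any 5 bases, the loop CAGTGN and then 5 bases that pair, G-T pairs allowed, with the 5 bases before the loop. The pattern was in the 5′ UTR of FTH1, FTL and SLC40A1 and, at 4 places, in the 3′ UTR of TFRC. It was found in 0.0977% of 19441 transcripts with a 5′ UTR and in 0.624% of 19550 with a 3′ UTR. Each hairpin is written 5′ to 3′ with the 6 loop bases in capitals, at chr11:61967575-61967600 for FTH1, chr19:48965337-48965362 for FTL, chr2:189580662-189580687 for SLC40A1, and chr3:196050980-196051005, chr3:196050576-196050601, chr3:196050511-196050536 and chr3:196050464-196050489 for TFRC.
FTH1: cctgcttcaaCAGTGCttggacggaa
FTL: cttgcttcaaCAGTGTttggacggaa
SLC40A1: acttcagctaCAGTGTtagctaagtt
TFRC: ttatcggaagCAGTGCcttccataat
TFRC: ttatcgggagCAGTGTcttccataat
TFRC: gtatcggagaCAGTGAtctccatatg
TFRC: ttatcgggaaCAGTGTttcccataat
The search fixed the loop up to its last base, so all matches share those bases. The 2 ferritin genes and TFRC were the 3 iron members not called at 24 h. SLC40A1 was called higher and NCOA4, with no match in either UTR, was called lower. A link between hairpin and call was not tested.

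Within single transfections, the calls of the 9 tested members all came from M-miR-512-3p. None was called in IC (0.0393% of genes were), in I-miR-200c-3p (2.28%), in MC (2.6%) or in M-miR-222-5p (4.38%). DESeq2 called 0 in each of these as well, and 0, 1, 1 and 3 members had an unadjusted p under 0.05. Over all genes, 481 and 1945 of 12738 were at that level in IC and I-miR-200c-3p, and 2232 and 2531 of 13244 in MC and M-miR-222-5p. In M-miR-512-3p 4 of 9 were called, where 9.96% of genes were: GPX4 and SLC40A1 were higher, ACSL4 and NCOA4 lower. Scaling to total counts moved the median of all genes by -0.19 in M-miR-512-3p and by -0.11 in MC. ACSL4 was called lower in M-miR-222-5p when no genes were filtered for low counts (-0.71, edgeR adjusted p = 0.0365) and in I-miR-200c-3p without I-miR-200c-3p_DMSO replicate 2 (-0.62, edgeR adjusted p = 0.0439). The calls in M-miR-512-3p alone do not show that the effect differs between transfections, and that difference was tested directly. Of the 9 tested members, 0 were called in each interaction of oligonucleotide and sorafenib. Of all genes, 0% were called for miR-200c-3p, 0% for miR-222-5p and 0.00755% for miR-512-3p. Among the 9, only GPX4, ACSL4 and NCOA4 had an unadjusted edgeR p under 0.05, each for miR-512-3p, and DESeq2 called 0. In that interaction 667 of 13244 genes were at that level. SLC7A11 is left out here, because its interactions are made of the sorafenib effects that chose it. The mean over MC and M-miR-222-5p alone, an estimate chosen after the calls were seen, called 0 of 9 members by edgeR, where 14.9% of genes were called. Of the 9, 4 had an unadjusted p under 0.05. The count of all genes at that level was not taken for this mean, and was 4967 of 13244 for the 3-transfection mean. The mean over MC and M-miR-222-5p gave log2 differences of 0.31 for GPX4, 0.41 for AIFM2, 0.63 for SLC40A1, -0.52 for ACSL4 and -0.37 for NCOA4, with the signs of the 3-transfection means (edgeR adjusted p from 0.0596 to 0.518).

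**Figure D4:**
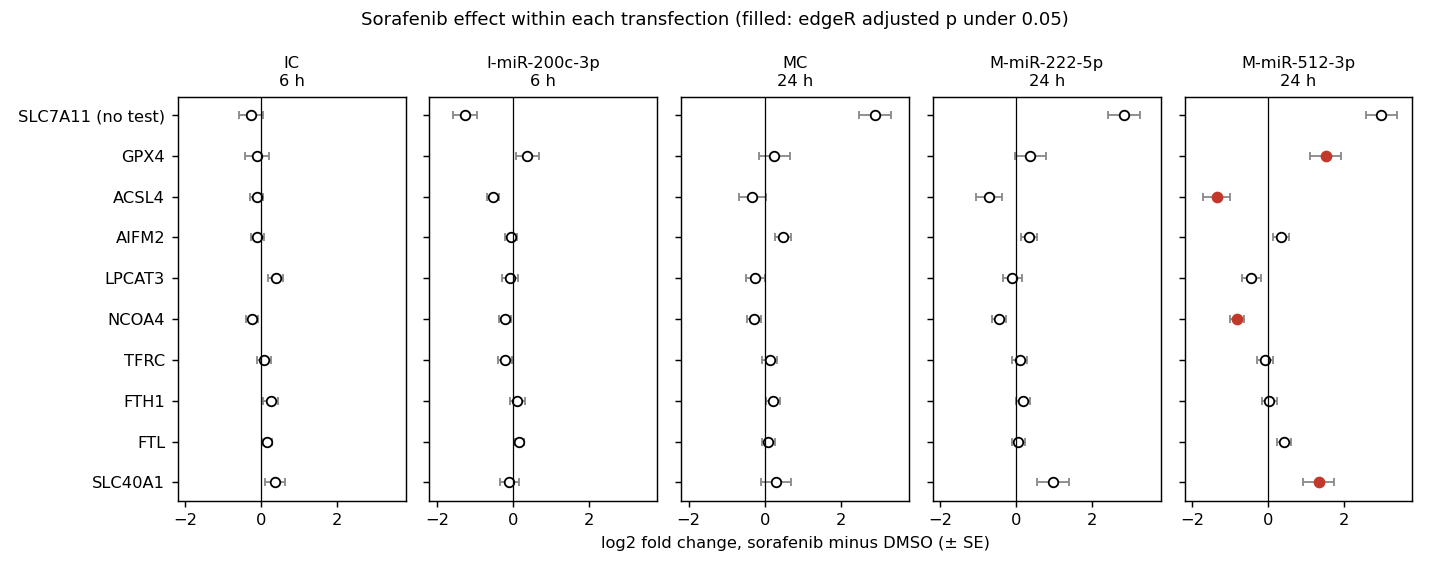
Log2 fold change of sorafenib over DMSO with its SE for the 10 genes within each of the 5 transfections. Filled red points mark members with an edgeR adjusted p under 0.05. The 4 filled points are all in M-miR-512-3p, and SLC7A11, which was not tested, lies between 2.84 and 2.98 in the 3 transfections at 24 h.

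Taking the 24 h and 6 h effects in a single fit, 0 of the 9 members were called for a difference between the times, where 9.4% of 13800 genes were. Of the 9, 2 had an unadjusted p under 0.05, where 3196 of the 13800 genes did, and DESeq2 called 0. The largest differences were 0.74 for SLC40A1 (SE 0.33, edgeR adjusted p = 0.164) and 0.58 for GPX4 (SE 0.369, edgeR adjusted p = 0.362), and that of AIFM2 was 0.47 (SE 0.178, edgeR adjusted p = 0.0897). With only the 12 libraries of the transfection controls, SLC40A1 was at -0.08, GPX4 at 0.33 and AIFM2 at 0.54 (edgeR adjusted p = 0.945, 0.845 and 0.332), so the sign for SLC40A1 turned.

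The members were also read against the transfected miRNAs. Mature sequences are from RefSeq (GRCh38.p14), written 5′ to 3′ with the seed, bases 2 to 8, in capitals, and are shown because the seed sets which messages a miRNA can pair with. miR-200c-3p lies at chr12:6963742-6963764, miR-222-5p at chrX:45747073-45747094 on the minus strand, and miR-512-3p at chr19:53666729-53666750 and chr19:53669213-53669234. The 3 seeds differ.
miR-200c-3p: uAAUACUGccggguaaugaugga
miR-222-5p: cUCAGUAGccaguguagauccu
miR-512-3p: aAGUGCUGucauagcugagguc
The 7-base complement of each seed was sought on the sense strand of the 3′ UTR of each member's reference transcript. CAGTATT (miR-200c-3p) was in 2 members, SLC7A11 and NCOA4, and in 16.1% of all 19550 3′ UTRs. CTACTGA (miR-222-5p) was in the same 2 members and in 9.21%, and CAGCACT (miR-512-3p) was in 19.6%, with the matches in ACSL4 and LPCAT3 shown; for this seed the other members are not reported here. The 3′ UTR of SLC7A11, at 7859 bases, was the longest of the members. Each window shows the match in capitals with 10 bases on each side, and all are from minus-strand genes.
SLC7A11, miR-200c-3p, chr4:138170618-138170644: gttgttttgcCAGTATTagaaaatact
SLC7A11, miR-200c-3p, chr4:138167535-138167561: ttcatataaaCAGTATTtttaatctat
SLC7A11, miR-222-5p, chr4:138166540-138166566: aacatatacaCTACTGAttttttttaa
NCOA4, miR-200c-3p, chr10:46005892-46005918: tagaaggactCAGTATTatttcaagac
NCOA4, miR-222-5p, chr10:46005558-46005584: tttgtgaaaaCTACTGAtgttttctca
ACSL4, miR-512-3p, chrX:109643120-109643146: aacccttgcaCAGCACTgaacctggga
LPCAT3, miR-512-3p, chr12:6976829-6976855: tcccttttcaCAGCACTcctttgcccc
A match is a description of the letters and not a binding site.

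None of the 10 members was called in any of the 6 contrasts of an oligonucleotide with its control. The share of genes called was 0.0157% for I-miR-200c-3p against IC in DMSO and 0% in sorafenib, 0% for M-miR-222-5p against MC in both, and 0.634% and 0.355% for M-miR-512-3p against MC in DMSO and in sorafenib. Of these 60 tests 9 had an unadjusted p under 0.05, and DESeq2 called 0. Over all genes, 667 and 273 of 12738 were at that level for I-miR-200c-3p in DMSO and in sorafenib. For M-miR-222-5p they were 737 and 800 of 13244, and for M-miR-512-3p 1385 and 1465. The M-miR-222-5p and M-miR-512-3p contrasts share the MC libraries, so their values are set side by side only.

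With M-miR-512-3p in DMSO, LPCAT3, which carries a match to its seed, was at 40.9, 38.1 and 42.6 CPM, below the MC libraries at 52.8, 60.6 and 78.6 CPM. In sorafenib it was at 38.8, 33.5 and 19.1 CPM, below the MC libraries at 54.5, 59.6 and 46.6 CPM. The groups were thus separate under both treatments, with log2 differences of -0.66 (SE 0.251, edgeR adjusted p = 0.296) and -0.86 (SE 0.254, edgeR adjusted p = 0.146). Without M-miR-512-3p_sorafenib replicate 3 the second was -0.59 (edgeR adjusted p = 0.334). Scaling to total counts moved the median of all genes in that contrast by -0.12. ACSL4, which also carries a match, lay the other way in DMSO: all 3 M-miR-512-3p libraries were above all 3 of MC, by 0.93 on the log2 scale (SE 0.345, edgeR adjusted p = 0.284), and in sorafenib the difference was -0.10 (SE 0.345). NCOA4 was likewise above MC in all libraries with the mimic in DMSO, by 0.54 (SE 0.185, edgeR adjusted p = 0.244), with a difference of -0.02 (SE 0.185) in sorafenib.

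SLC40A1 in DMSO was lower with both mimics than in MC, with no overlap of libraries in either contrast, and the 2 contrasts share the 3 MC libraries. The log2 difference was -1.45 (SE 0.422, edgeR adjusted p = 0.398) for M-miR-222-5p and -1.16 (SE 0.415, edgeR adjusted p = 0.26) for M-miR-512-3p. In sorafenib it was -0.78 (SE 0.408) and -0.12 (SE 0.401), and the groups overlapped. GPX4 differed from MC by 1.201 (SE 0.415, edgeR adjusted p = 0.23) with M-miR-512-3p in sorafenib, 0.84 without the library that stood apart, and by -0.06 in DMSO. It was called there when no genes were filtered for low counts (1.21, edgeR adjusted p = 0.000976). Without that filter, ACSL4 was called in DMSO too (0.94, edgeR adjusted p = 0.00442). With the miR-200c-3p inhibitor, ACSL4 in DMSO was above IC in all libraries (0.45, SE 0.167, edgeR adjusted p = 0.865). Groups were also separate for AIFM2 with M-miR-512-3p in DMSO (0.41, SE 0.21) and for FTL with M-miR-512-3p in sorafenib (0.34, SE 0.174). The same held for SLC40A1 with the miR-200c-3p inhibitor in sorafenib (-0.46, SE 0.252), and none of these was called. The share of all genes with separate groups was not taken.

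Around SLC7A11, genes of cystine uptake and glutathione synthesis were higher with sorafenib at 24 h. Of a list of 12, 10 were tested and 7 rose, where 25.8% of all genes tested were called, with a list median of 0.97 beside -0.04 for all genes. SLC3A2, the heavy chain that pairs with SLC7A11 in the cystine transporter, lay between 78.6 and 230.8 CPM in the DMSO libraries of 24 h and between 339.6 and 625.9 CPM in the sorafenib libraries. It rose by 1.61 (SE 0.165, edgeR adjusted p = 1.34e-07). CTH, which makes cysteine from cystathionine, rose by 2.08 (SE 0.241, edgeR adjusted p = 8.04e-07), and GCLM, the modifier subunit of the enzyme that starts glutathione synthesis, by 1.87 (SE 0.179, edgeR adjusted p = 5.44e-08). TXNRD1, a thioredoxin reductase, rose by 1.21 (SE 0.127, edgeR adjusted p = 1.74e-07) in the 24 h experiment. In the 6 h experiment it fell by 0.65 (SE 0.129, edgeR adjusted p = 0.00684) and was the 1 of 10 called, where 2.89% of all genes were. All 7 risen genes were also called for a larger effect at 24 h than at 6 h, in a contrast where 9.4% of all genes were called. That contrast uses the same 24 h libraries by which the 7 were called, so it is not a separate test of them.

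Of 8 upstream regulators, 6 rose at 24 h (list median 0.67 beside -0.04 for all genes), where 25.8% of all genes were called, and 2 at 6 h (list median 0.17), where 2.89% were. ATF3, a stress-induced transcription factor, was between 2.71 and 20.6 CPM in DMSO and between 40.3 and 84.0 CPM in sorafenib at 24 h, a rise of 3.22 (SE 0.307, edgeR adjusted p = 5.04e-08). DDIT3 (CHOP) rose by 1.35 at 6 h (SE 0.177, edgeR adjusted p = 0.000121) and by 2.36 at 24 h (SE 0.224, edgeR adjusted p = 4.85e-08). ATF4, the main transcription factor of the integrated stress response, rose by 0.94 at 24 h (SE 0.137, edgeR adjusted p = 1.85e-05), with 0.01 at 6 h. NFE2L2, which encodes the antioxidant regulator NRF2, rose by 0.47 at 6 h (SE 0.11, edgeR adjusted p = 0.0194) and by 0.41 at 24 h (SE 0.116, edgeR adjusted p = 0.0108). BACH1, a repressor at the same kind of element, rose by 0.81 at 24 h (SE 0.218, edgeR adjusted p = 0.00809), with 0.38 at 6 h (SE 0.216, edgeR adjusted p = 0.423).

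The other lists moved less or in both directions. Of 18 genes of lipid peroxidation and phospholipid synthesis, 10 were tested; at 24 h 3 fell and 1 rose, beside 25.8% of all genes called (median -0.04 for the list and for all genes). At 6 h edgeR called 0, beside 2.89% of all genes. There, 2 had an unadjusted p under 0.05, where 1962 of the 12738 genes tested did. Those that fell at 24 h were SCD, the desaturase that makes oleic acid (-0.77, SE 0.155, edgeR adjusted p = 0.000678), FADS1, the delta-5 desaturase of polyunsaturated acids (-0.76, SE 0.133, edgeR adjusted p = 0.000173), and AGPAT3 (-0.54, SE 0.131, edgeR adjusted p = 0.0037). SAT1, a polyamine acetyltransferase, rose by 0.33 (SE 0.101, edgeR adjusted p = 0.0184). Of 11 genes of radical trapping and selenoprotein synthesis, 1 fell at 24 h (list median -0.05), beside 25.8% of all genes called. It was SEPHS2, which makes the selenium donor for selenoproteins such as GPX4 (-0.65, SE 0.117, edgeR adjusted p = 0.000231). At 6 h edgeR called 0 of the 11, beside 2.89% of all genes called. Of the 11, 2 had an unadjusted p under 0.05, where 1962 of the 12738 genes tested did.

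Of 29 genes of iron transport and storage, 23 were tested; 4 rose and 4 fell at 24 h, beside 25.8% of all genes called, with a list median of -0.19 beside -0.04 for all genes. At 6 h 1 rose and 1 fell, beside 2.89%. HAMP, which encodes hepcidin, was between 71.0 and 171.9 CPM in the DMSO libraries of 24 h and between 214.9 and 437.8 CPM in the sorafenib libraries. It rose by 0.50 at 6 h (SE 0.11, edgeR adjusted p = 0.0146) and by 1.41 at 24 h (SE 0.132, edgeR adjusted p = 4.05e-08), and this difference between the 2 experiments was called (0.92, SE 0.185, edgeR adjusted p = 0.00112). CP, the ferroxidase ceruloplasmin that acts with ferroportin, fell by 1.27 at 24 h (SE 0.277, edgeR adjusted p = 0.00152), and TFR2, the iron-sensing transferrin receptor of hepatocytes, by 0.67 (SE 0.222, edgeR adjusted p = 0.0271). ISCU, the scaffold for iron-sulfur clusters, rose by 0.66 at 24 h (SE 0.193, edgeR adjusted p = 0.0135). PCBP1, an iron chaperone for ferritin, fell by 0.39 at 6 h (SE 0.106, edgeR adjusted p = 0.0468).

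**Figure D5:**
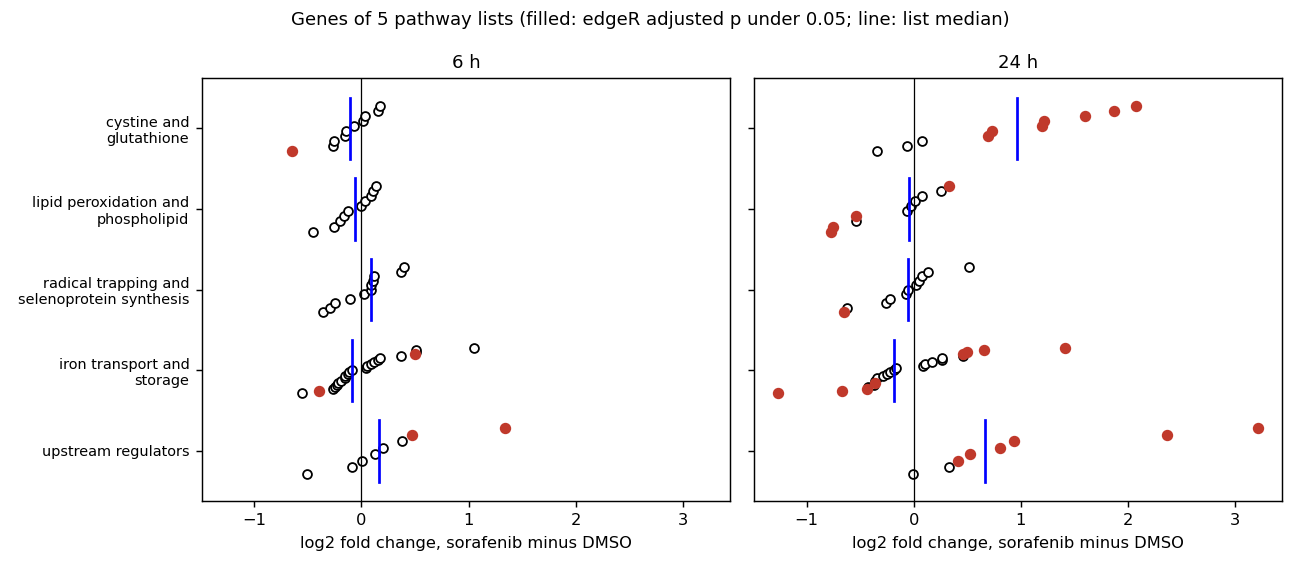
Log2 fold change of sorafenib over DMSO for the tested genes of 5 pathway lists, at 6 h and at 24 h, 1 point per gene. Filled red points have an edgeR adjusted p under 0.05 and blue lines are list medians. At 24 h, 7 of 10 cystine and glutathione genes and 6 of 8 upstream regulators are filled, all to the right of 0.

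Genes were ranked by the Pearson correlation of their group means of log2(CPM + 1) with those of SLC7A11 over the 10 groups, among 8178 genes with a mean of at least 10 CPM. The 5 most alike were USP42 (0.977), AAK1 (0.970), GCLC (0.969), DUSP14 (0.969) and PSMG3 (0.968). The 10 points share treatments and experiments, so the values are a description of order. GCLC, the catalytic partner of GCLM, ranked first when the 30 libraries were used in place of the group means (0.932), followed by TXNRD1 (0.921) and SLC3A2 (0.919). Of the other members, AIFM2 had the highest correlation over the 10 groups (0.791, rank 634) and ACSL4 the lowest (-0.653, rank 7050).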

How the data were processed

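Gene counts of 30 libraries of HepG2 cells (QuantSeq 3′ tag libraries) were used as deposited. Per the labels and the submitters' processing notes, the authors worked with DRAGEN, STAR, HTSeq and DESeq2 on GRCh38; the annotation release and the strand setting are not given in the sources used here. A table of normalised values was also deposited and was not used. Of 60107 rows, 56104 matched a symbol (GENCODE release 44); 92 spike-in rows held 3 counts in all.

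Counts were filtered (filterByExpr), scaled by TMM and tested with edgeR 4.0.16 in R 4.3.3 (quasi-likelihood F test, Benjamini-Hochberg over all genes tested), with 1 coefficient per group: 12738 genes in 12 libraries at 6 h, 13244 in 18 at 24 h and 13800 in all 30. Means over transfections weight them equally. DESeq2 1.42.0, other scalings, no filter, a replicate block, subsets of libraries and the omission of each library were alternatives. The fit was tested on simulated data. The members, pathway lists and tests were chosen with earlier results of these data known. Up to 4 called genes per list with the largest change are named for each of the 2 main sorafenib contrasts. Levels are CPM of TMM-scaled libraries. Floors (3 counts) cover counting error only, while each SE comes from the fit and includes the spread between replicates. Some sequence matches are not reported here.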

Additional observations from a re-analysis of the deposited data

How the results depend on the processing

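No called value of a member changed sign under any alternative run. The count of called members with sorafenib at 24 h (5 of 9) ranged from 3 to 5 when single libraries were left out, the 3 being without M-miR-512-3p_sorafenib replicate 3, and it was 0 when the mean was taken over MC and M-miR-222-5p only, an alternative added after seeing the data. The count within the 5 transfections (4) ranged from 1 to 5, with 5 without I-miR-200c-3p_DMSO replicate 2 (5 also with no filter on low counts), 1 without M-miR-512-3p_sorafenib replicate 3 and 2 without M-miR-512-3p_sorafenib replicate 2 or any of M-miR-512-3p_DMSO replicates 1, 2 and 3. The count for the 6 oligonucleotide contrasts (0) was 2 with no filter on low counts and 1 with the replicate block (GPX4 for M-miR-512-3p against MC in sorafenib, 1.28, edgeR adjusted p = 0.0374). The cause was not tested. Of the 5 genes most like SLC7A11 over group means, 1 was among the top 5 over 30 libraries. The SLC7A11 difference between 24 h and 6 h was 3.16 with the 12 transfection-control libraries only.

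The main fits did not pair samples by replicate number. Deviations of same-numbered libraries of different groups correlated between -0.224 and 0.458 (median 0.029) at 6 h and between -0.25 and 0.381 (median 0.091) at 24 h. For libraries with different numbers the medians were -0.018 and -0.055. At 6 h 6 of 12 libraries correlated best with their own number, and at 24 h 15 of 18. Most libraries at 24 h thus shared deviations with their number, which the main p-values there do not take up. With the block the count at 24 h was 5 and that within transfections 4. With 3 replicates per group and adjustment over all genes, a member that was not called was not shown to be unchanged.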
